A study of Rattus norvegicus with 8 samples.

Results

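The muscle miRNAs miR-1, miR-1b, miR-133a, miR-133b, miR-206 and miR-499 were examined in bone marrow mesenchymal stem cells (BMSCs) of the rat, stromal cells that adhere to plastic and can become osteoblasts, chondrocytes or adipocytes. They were found by name: every row of the deposited miRNA table whose name, without species prefix and arm suffix, was exactly 1 of these was taken, which gave 8 of 487 rows. The rows were rno-miR-1-3p, rno-miR-1b, rno-miR-133a-3p, rno-miR-133a-5p, rno-miR-133b-3p, rno-miR-206-3p, rno-miR-206-5p and rno-miR-499-5p. The study compared 4 control libraries with 4 libraries from cells given 10 µM dexamethasone, a synthetic glucocorticoid, for 48 h. The labels give no rat strain, age, passage or vehicle, and do not state that replicates came from separate cultures; the p-values thus measure only the spread between these libraries, which may be technical. Libraries held 1835256 to 2639007 counts in control and 1377881 to 1521505 in treated samples, so depth and treatment cannot be told apart by design, and the raw counts of each miRNA are therefore given beside its CPM, the count scaled to the library total.

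miRNAs are short RNAs that guide Argonaute proteins to messenger RNAs, mainly by pairing of the seed, bases 2 to 8 from the 5′ end. miR-1 and miR-133 are made in heart and skeletal muscle under the control of myogenic factors such as MyoD, SRF and MEF2; miR-1 is known for promoting muscle differentiation through repression of Hdac4, and miR-133 for favouring myoblast growth. miR-206 is largely restricted to skeletal muscle, where it rises with differentiation and regeneration, and miR-499 lies in an intron of a myosin heavy chain gene and is known from heart and slow muscle fibres. Glucocorticoids are known to cause muscle wasting in animals and are used in culture media that drive BMSCs towards bone, cartilage or fat.

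The mature sequences were shown first because the members fall into seed groups and differ from each other by few bases. RefSeq (build GRCr8, not the mRatBN7.2 build of the files, with no conversion between them) gave a sequence for 7 of the 8 rows. Each is written 5′ to 3′ with the seed in capitals.
miR-206-3p: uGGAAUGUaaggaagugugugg
miR-1-3p: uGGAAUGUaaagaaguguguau
miR-1b: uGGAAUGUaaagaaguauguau
miR-133a-3p: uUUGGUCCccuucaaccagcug
miR-133b-3p: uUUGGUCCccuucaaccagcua
miR-133a-5p: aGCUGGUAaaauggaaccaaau
miR-499-5p: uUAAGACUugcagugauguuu

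Among the 443 table rows with a RefSeq sequence, the seed GGAAUGU occurred in 3 rows (miR-206-3p, miR-1-3p and miR-1b), UUGGUCC in 2 (miR-133a-3p and miR-133b-3p), and the seeds of miR-133a-5p and miR-499-5p in 1 row each. With positions counted from 1 at the 5′ end and the base of the first-named miRNA given first, miR-1-3p and miR-1b differed by G17A alone. miR-1-3p and miR-206-3p differed by A11G, A21G and U22G, and miR-1b and miR-206-3p differed at 4 positions (A11G, A17G, A21G and U22G). miR-133a-3p and miR-133b-3p differed by G22A, the last base. The sources used here do not give how reads that match more than 1 of these sequences were assigned, so the rows within a seed group are uncertain individually.

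For each mature name the first listed GRCr8 locus was taken, and these loci lie in 4 places. Further loci with the same mature name were not looked for. miR-206-3p lies at chr9:30590747-30590768 and miR-133b-3p at chr9:30594629-30594650, both on the plus strand, with 3801 bases between their hairpins and both inside the annotated long non-coding RNA LOC120094648 on the same strand. miR-1-3p (chr18:2160339-2160360) and miR-133a-3p (chr18:2157886-2157907) lie on the minus strand with 2368 bases between hairpins, inside the span of Mib1, a ubiquitin ligase gene of the opposite strand. miR-1b lies at chr3:187864736-187864757 with no overlapping annotated gene, and miR-499-5p at chr3:164570616-164570636 inside Myh7b, a myosin heavy chain gene of the same strand. The hairpins of the abundant miR-206 and of miR-1b are printed with the mature sequence in capitals, to show which arm carries the counts given here.
Mir206 hairpin, chr9:30590697-30590780: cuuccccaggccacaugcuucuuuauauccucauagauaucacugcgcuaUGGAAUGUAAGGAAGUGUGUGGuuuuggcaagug
Mir1b hairpin, chr3:187864685-187864769: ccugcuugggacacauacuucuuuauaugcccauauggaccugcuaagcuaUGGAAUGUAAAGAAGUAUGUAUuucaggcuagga

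rno-miR-206-3p, the skeletal muscle miRNA, was the most abundant member and rose after dexamethasone. Control replicates 1 to 4 held 246, 217, 132 and 139 counts, or 93.2, 92.4, 71.9 and 62.5 CPM. Treated replicates 1 to 4 held 423, 323, 292 and 317 counts, or 292, 212, 205 and 230.1 CPM. Every treated library lay above every control library, in CPM and also in raw counts although the treated libraries were the shallower ones. The mean CPM went from 80.0 ± 15.3 to 235 ± 39.4 (SD, n = 4 each), a ratio of means of 2.94. On the log2 scale the fold change was 1.58 ± 0.16 (SE; edgeR quasi-likelihood test, Benjamini-Hochberg adjusted p = 8.75e-06 over 245 tested miRNAs). By mean CPM it moved from rank 122 to rank 78 of the 487 rows. BMSCs are bulk samples here, so more cells that make a miRNA and more of it per cell cannot be told apart.

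The other arm of the same hairpin, rno-miR-206-5p, was close to absent. It had 1 count in control replicate 3 and 0 in the other 7 libraries. Of the miR-206 counts summed over the 4 controls, 1 of 735 was from the 5p arm (0.136%, exact Clopper-Pearson 95% interval 0.00344% to 0.756%). In the 4 treated libraries 0 of 1355 were (exact Clopper-Pearson 95% interval 0% to 0.272%; the limit of 3 counts that a count of 0 allows is 0.221%). These limits cover counting error only.

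**Figure D1:**
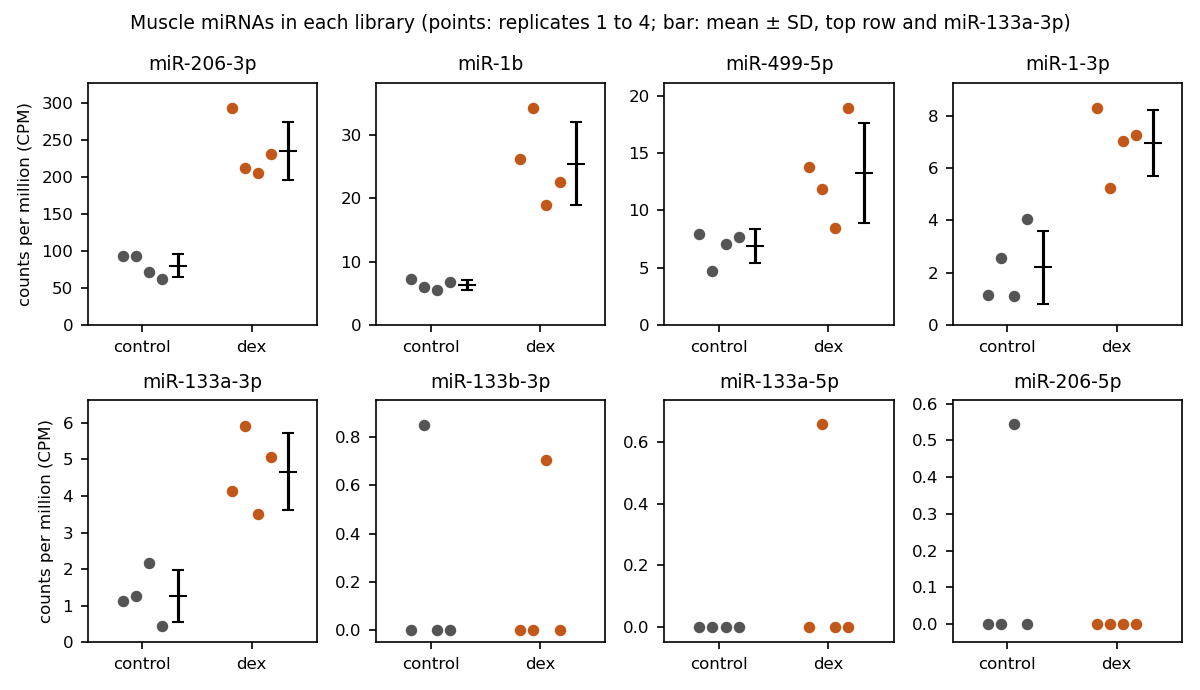
CPM of each of the 8 muscle miRNA rows (vertical axes, each with its own scale) in the 4 control (grey) and 4 dexamethasone (orange, dex) libraries, with points from left to right for replicates 1 to 4 and bars for mean ± SD in rows with more than 3 counts in all. In miR-206-3p, miR-1b, miR-499-5p, miR-1-3p and miR-133a-3p the 4 treated points lie above the 4 control points, and the other 3 rows hold 1 to 3 counts each.

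rno-miR-1b and rno-miR-1-3p, which share the miR-206 seed, were both higher in every treated library. miR-1b had 19, 14, 10 and 15 counts in control replicates 1 to 4 (7.20, 5.96, 5.45 and 6.74 CPM). In treated replicates 1 to 4 it had 38, 52, 27 and 31 counts (26.2, 34.2, 19.0 and 22.5 CPM). Groups were apart in raw counts as well as in CPM, and treated replicate 2 was the highest, whereas treated replicate 1 was the highest in miR-206-3p. The miR-1b mean rose from 6.34 ± 0.783 to 25.5 ± 6.51 CPM (SD, n = 4 each), a ratio of 4.02, and edgeR put its log2 fold change at 2.01 ± 0.24 (SE; adjusted p = 2.33e-05). By size of log2 fold change it was the 4th and miR-206-3p the 6th of the 61 miRNAs called higher.

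miR-1-3p was less abundant than miR-1b in these libraries. It had 3, 6, 2 and 9 counts in the controls, replicates 1 to 4 (1.14, 2.55, 1.09 and 4.05 CPM). In the treated libraries it had 12, 8, 10 and 10 counts (8.28, 5.26, 7.04 and 7.26 CPM). The groups did not overlap in CPM but did in raw counts, where control replicate 4 exceeded treated replicate 2. The abundance filter left miR-1-3p out of the reported fit, because only 3 treated and 0 control libraries reached its minimum of 5.96 CPM, while 4 libraries were needed. Its mean was 2.21 ± 1.40 CPM in control and 6.96 ± 1.26 CPM in treated libraries (SD, n = 4 each; exact two-sided permutation p = 0.0286, unadjusted and the smallest that 70 assignments allow). After thinning all libraries to 1377881 counts the exact permutation p was 0.0571. With no filter, edgeR gave a log2 fold change of 1.64 ± 0.47 (SE; adjusted p = 0.00999).

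Since miR-1b and miR-1-3p differ by G17A alone, they were also summed. The sum was 22, 20, 12 and 24 counts in control replicates 1 to 4 and 50, 60, 37 and 41 in treated replicates 1 to 4. In CPM it ran from 6.54 to 10.8 in control and from 26.0 to 39.4 in treated libraries, so the sum, which does not depend on how reads were divided between the pair, did not overlap between groups. miR-1b made up 62.5% to 86.4% of the pair's counts in control and 73.0% to 86.7% in treated libraries, ranges that overlapped. All 3 rows with the GGAAUGU seed together held 73.3 to 102 CPM in control and 231 to 326 CPM in treated libraries.

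The miR-133 rows were near the limit of detection, and rno-miR-133a-3p alone among them had counts in every library. It had 3, 3, 4 and 1 counts in control replicates 1 to 4 (1.14, 1.28, 2.18 and 0.449 CPM). It had 6, 9, 5 and 7 counts in treated replicates 1 to 4 (4.14, 5.92, 3.52 and 5.08 CPM). The treated libraries lay above the controls in raw counts and in CPM. The mean was 1.26 ± 0.711 CPM in control and 4.66 ± 1.05 CPM in treated libraries (SD, n = 4 each; exact two-sided permutation p = 0.0286, unadjusted). No library reached the filter's minimum; with no filter, edgeR put its log2 fold change at 1.89 ± 0.56 (SE; adjusted p = 0.0117). A count of 0 in a library allowed 3 counts, or 1.14 to 2.18 CPM. No library had 0 counts of miR-133a-3p, but its control counts lay near that limit. The control values rest on 11 counts in all and the treated values on 27, and the fold change rests on both.

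The remaining miR-133 rows gave no basis for a comparison on their own. miR-133a-3p and miR-133b-3p, which differ in the last base alone, were also summed. The sum was 3, 5, 4 and 1 counts in control replicates 1 to 4. It was 6, 9, 6 and 7 counts in treated replicates 1 to 4. In CPM it ran from 0.449 to 2.18 in control and from 4.14 to 5.92 in treated libraries, with no overlap. Most of these counts were miR-133a-3p. rno-miR-133b-3p, which shares its host RNA with miR-206, had 2 counts in control replicate 2, 1 count in treated replicate 3 and 0 in the other 6 libraries. Its neighbour miR-206-3p had 734 counts summed over controls and 1355 summed over treated libraries. rno-miR-133a-5p had 1 count, in treated replicate 2. For both, exact two-sided permutation gave p = 1, and a difference was not detectable at this depth.

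rno-miR-499-5p, the miRNA of the Myh7b intron, showed the smallest and least stable rise of the members that passed the filter. It had 21, 11, 13 and 17 counts in control replicates 1 to 4 (7.96, 4.68, 7.08 and 7.64 CPM). It had 20, 18, 12 and 26 counts in treated replicates 1 to 4 (13.8, 11.8, 8.44 and 18.9 CPM). The groups were apart in CPM but overlapped in raw counts, with treated replicate 3 below controls 1, 3 and 4. The mean rose from 6.84 ± 1.48 to 13.2 ± 4.36 CPM (SD, n = 4 each), and edgeR put its log2 fold change at 0.97 ± 0.29 (SE; adjusted p = 0.0169). Without control replicate 2, the lowest control, the log2 fold change was 0.80 and the edgeR adjusted p was 0.0501. It was 0.78 (adjusted p = 0.0405) without treated replicate 4, the highest library.

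The members' calls were set beside those of all miRNAs. Of the 245 miRNAs tested, 61 (24.9%) were called higher and 52 (21.2%) lower at an edgeR adjusted p below 0.05; with upper quartile scaling the counts were 41 and 71. Only 3 of the 8 muscle rows were tested, and all 3 of these were called higher. miR-1b and miR-499-5p reached the filter's minimum in 4 treated but only 3 control libraries, so they could enter through the group in which they were high, and the count of 3 is no measure of the members as a set. With no filter, 5 of the 8 rows were called higher and 0 lower, against 12.5% called higher among all 487 rows. Groups did not overlap, with treated above control in CPM, in the same 5 rows, against 12.7% of the 487 rows. In the authors' deposited table, whose test is unstated in the sources used here, 5 of the 8 rows were higher at an adjusted p below 0.05 against 13.1% of all rows. The adjusted p in the authors' deposited table was 0.00657 for miR-1-3p, 0.0122 for miR-133a-3p and 0.0237 for miR-499-5p.

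**Figure D2:**
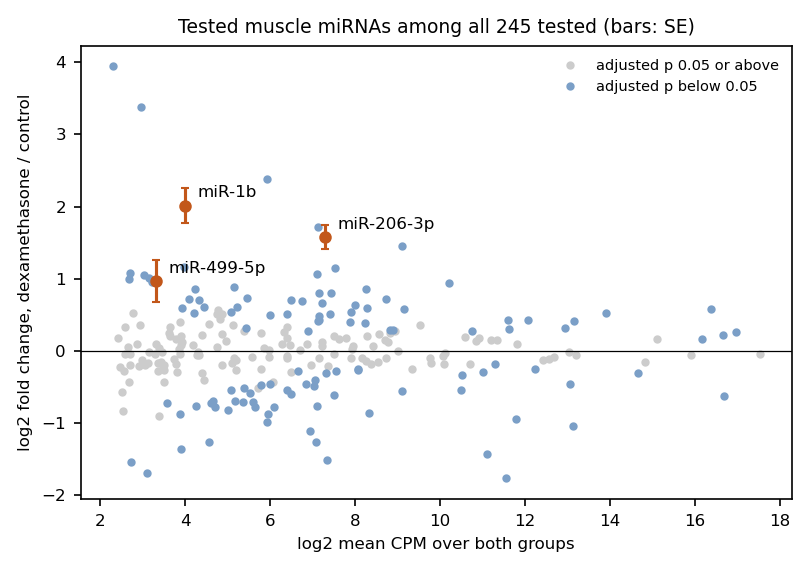
Log2 fold change of dexamethasone over control (vertical axis) against log2 mean CPM (horizontal axis) for the 245 miRNAs tested, with blue points for an edgeR adjusted p below 0.05, grey points for the others and orange points with SE bars for the 3 tested muscle miRNAs. miR-1b (2.01) and miR-206-3p (1.58) lie among the largest rises and miR-499-5p (0.97) lies at low abundance.

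The members differed widely in level, with miR-206-3p far above the rest in both groups. In control libraries miR-206-3p (80.0 CPM) was followed by miR-499-5p (6.84), miR-1b (6.34), miR-1-3p (2.21) and miR-133a-3p (1.26 CPM, means). The ranges of miR-499-5p and miR-1b overlapped, as did those of miR-1-3p and miR-133a-3p. The ranges thus do not settle the order of these neighbours, which were not compared within libraries. In treated libraries miR-1b (25.5 CPM) stood above miR-499-5p (13.2 CPM) with no overlap, and miR-1-3p (6.96 CPM) and miR-133a-3p (4.66 CPM) again overlapped. Library preparation captures some miRNAs better than others, so these are orders of counts and not of molecules. miR-206-3p made up 76.8% to 85.8% of the members' counts in control and 78.6% to 84.8% in treated libraries. All 8 rows together held 81.4 to 111 CPM in control and 244 to 344 CPM in treated libraries. Without miR-206-3p the other 7 held 15.3 to 18.9 CPM in control and 38.7 to 57.8 CPM in treated libraries.

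Ratios within a library do not depend on scaling between libraries. They were used to ask whether 5 other members changed by a different factor than miR-206-3p. These were miR-1b, miR-1-3p, miR-133a-3p, miR-133b-3p and miR-206-5p. The ratios of miR-499-5p and miR-133a-5p were not tested. The log2 fold change of miR-499-5p was 0.97 ± 0.29, beside 1.58 ± 0.16 for miR-206-3p (SE, edgeR). miR-1b counts were 7.72%, 6.45%, 7.58% and 10.8% of miR-206-3p counts in control replicates 1 to 4. They were 8.98%, 16.1%, 9.25% and 9.78% in treated replicates 1 to 4, so the groups overlapped through control replicate 4. The mean log2 ratio, with 0.5 added to each count, was -3.60 ± 0.31 in control and -3.21 ± 0.39 in treated libraries (SD, n = 4 each). The difference of 0.39 was not past the threshold (exact permutation p = 0.171, two-sided; adjusted p = 0.381 over 5 ratios). It was 0.20 without treated replicate 2 and 0.26 after thinning all libraries to the smallest total.

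miR-1-3p was 1.22% to 6.47% of miR-206-3p counts in control and 2.48% to 3.42% in treated libraries, and its difference in log2 ratio was 0.19 (exact permutation p = 0.8, adjusted p = 0.8). Without control replicate 1 that difference was -0.12, without control replicate 3 it was 0.01, without control replicate 4 it was 0.63 and without treated replicate 3 it was 0.12. Thinning put it at 0.37, and adding 1 instead of 0.5 to each count put it at 0.10. miR-133a-3p was 0.719% to 3.03% of miR-206-3p counts in control and 1.42% to 2.79% in treated libraries, with a difference of 0.32 (exact permutation p = 0.486, adjusted p = 0.607); without control replicate 3 the difference was 0.65, without treated replicate 2 it was 0.16 and without control replicate 4 it was 0.10. For miR-133a-3p thinning gave 0.89 and the addition of 1 count gave 0.18. A p that misses the threshold does not show that these miRNAs changed by the same factor. For miR-133b-3p and miR-206-5p, with 3 counts and 1 count in all, the ratio is set by the added 0.5 and the depth of miR-206-3p. Their adjusted p were 0.381 and 0.143 (exact permutation), and nothing was read from them.

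**Figure D3:**
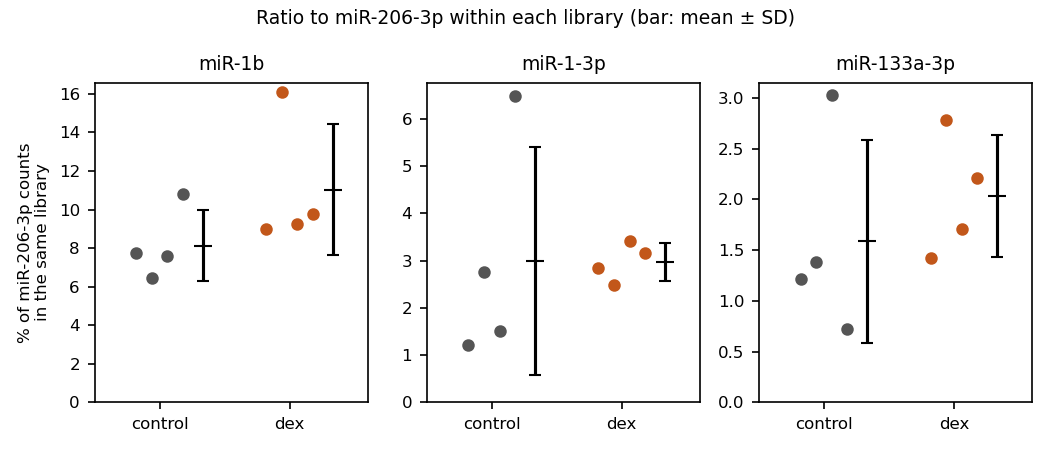
Counts of miR-1b, miR-1-3p and miR-133a-3p as a percentage of miR-206-3p counts in the same library (vertical axes, each with its own scale) for control (grey) and dexamethasone (orange, dex) libraries, points from left to right for replicates 1 to 4 and bars for mean ± SD. The groups overlap in all 3 panels, and treated replicate 2 is the highest point for miR-1b at 16.1%.

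The fold changes of miR-206-3p and miR-1b varied little with the way the data were scaled or tested. Over the reported fit and its 17 alternatives the log2 fold change of miR-206-3p ran from 1.43 to 1.65. That of miR-1b ran from 1.82 to 2.13, and both were called higher in all 18. With the filter of 10 CPM in 4 samples, miR-1b entered through the treated libraries alone (control maximum 7.20 CPM, treated minimum 19.0 CPM). Its call in that fit adds no support. miR-499-5p could be fitted in 17, with log2 fold changes from 0.78 to 1.11, and was called in 16. miR-1-3p entered 6 fits (no filter, and without any 1 control library or without treated replicate 2). Its log2 fold changes ran from 1.39 to 2.06 and its edgeR adjusted p from 0.00398 to 0.0241. Where 1 library was left out, miR-1-3p passed the filter through the treated libraries alone, as its control maximum was 4.05 CPM. Those calls therefore add no support. Upper quartile scaling shifted the median log2 fold change of all tested miRNAs by -0.15, and miR-499-5p was then at 0.82 (edgeR adjusted p = 0.0399).

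**Figure D4:**
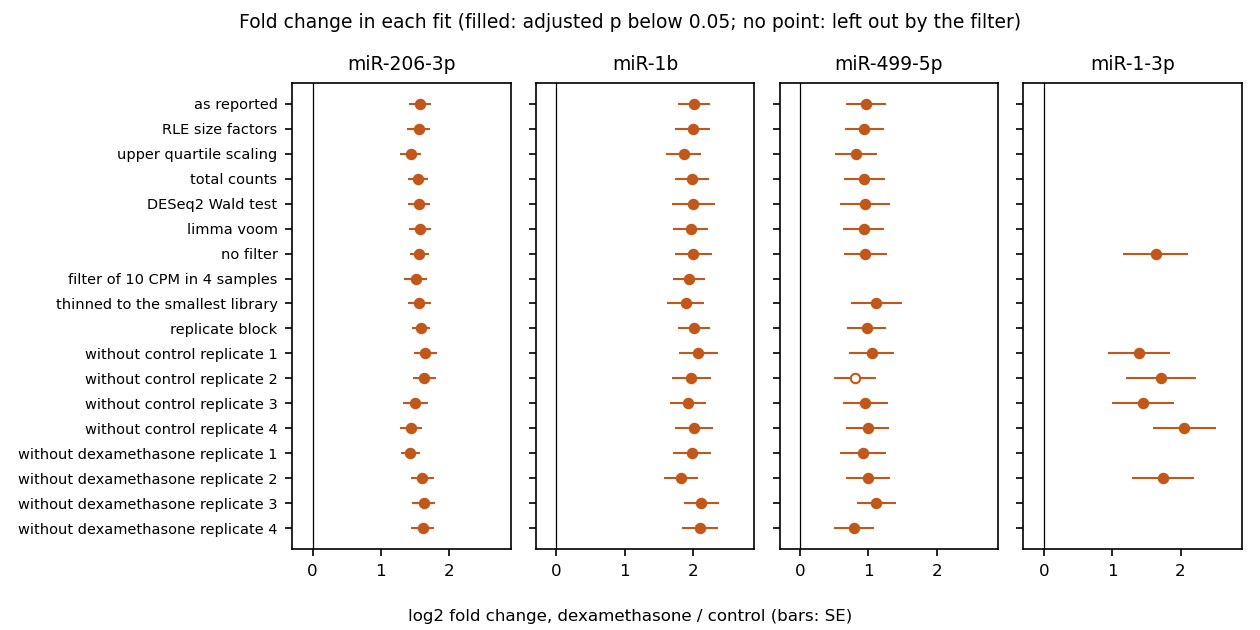
Log2 fold change of dexamethasone over control (horizontal axis, bars for SE) for miR-206-3p, miR-1b, miR-499-5p and miR-1-3p under the reported fit and each alternative (rows), filled where the adjusted p was below 0.05. All points lie to the right of 0, and the only open point is miR-499-5p without control replicate 2.

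The miRNAs whose pattern over the 8 libraries was most like that of miR-206-3p were sought among the 212 other tested miRNAs that averaged 10 CPM or more. Likeness was the root mean square difference of log2 CPM after centring each miRNA on its control mean. The nearest were miR-101b-3p (0.30), miR-224-5p (0.32) and miR-503-5p (0.35, log2 units, over 8 libraries). miR-101b-3p went from 65.8 ± 5.13 to 213 ± 11.5 CPM, miR-224-5p from 298 ± 5.88 to 801 ± 93.7 CPM and miR-503-5p from 116 ± 11.9 to 254 ± 28.0 CPM (SD, n = 4 each). None of them shares a seed with a muscle row.

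Other miRNAs linked to muscle went in both directions. Of the further striated muscle names (miR-208a and miR-208b, of the heart myosin genes, and miR-486, which muscle and erythroid cells share), miR-486 had a row, with 12 counts in all controls and 2 in all treated libraries, and was not tested. miR-143 and miR-145, which are known for smooth muscle differentiation, gave 4 tested arms, of which 0 rose and 2 fell, where 21.2% of all tested miRNAs were called lower. miR-143-3p, at 28820 ± 605 CPM in control (SD, n = 4), had a log2 fold change of -0.30 ± 0.07, and miR-143-5p, at 55.8 ± 6.94 CPM in control, had one of -0.59 ± 0.15 (SE; adjusted p from edgeR 0.00525 and 0.00585). The log2 fold change of miR-145-5p was -0.10 ± 0.09 (SE; adjusted p = 0.401 from edgeR). The median log2 fold change of these 4 arms was -0.36, beside 0.00 over all 245 tested.

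A list of 21 widely expressed miRNA names with described roles in myogenesis had 35 rows by exact name without arm suffix. Of them 26 were tested. Among these 9 rose, 4 fell and 13 did not pass, with a median log2 fold change of 0.16, beside the 24.9% called higher and 21.2% called lower over all tested miRNAs. With upper quartile scaling 6 of them rose and 7 fell, where 41 of all 245 were higher and 71 lower. The 3 most abundant were miR-125b-5p (0.26 ± 0.06), miR-29a-3p (0.53 ± 0.08) and miR-31a-5p (-1.04 ± 0.06, all as log2 fold change ± SE); edgeR gave adjusted p of 0.00329, 1.49e-04 and 5.06e-08. The list was chosen with earlier results of these libraries known. Arms whose names carry a locus number were not matched and are outside these counts. Among the tested ones, miR-181a-1-3p was called lower (log2 fold change -0.77 ± 0.16, SE, edgeR adjusted p = 0.00196). Those of miR-125b-1-3p (-0.26) and miR-125b-2-3p (-0.52) did not pass (edgeR adjusted p = 0.243 and 0.0768).

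Markers of other cell types were read as the summed CPM of each list, with rows matched by exact name without arm suffix. The mesenchymal list (miR-199a, miR-199b, miR-214, miR-143, miR-145 and miR-10b) held 131611 to 137238 CPM in control and 141511 to 144327 CPM in treated libraries, with 2 of 7 tested arms higher, 2 lower and a median log2 fold change of -0.10. Most of that sum was miR-199a-3p (97394 ± 1847 CPM in control and 110804 ± 2615 CPM in treated libraries), while miR-143-3p, named above, was lower (SD, n = 4 each). The haematopoietic list held 442 to 478 CPM in control and 531 to 583 CPM in treated libraries. Of its 3 tested arms 2 were higher and 0 lower, beside 24.9% called higher over all tested miRNAs. Most of the haematopoietic sum was miR-155-5p (means of 413 CPM in control and 498 CPM in treated libraries), which is also on the myogenesis list. The other arm called higher, miR-142-3p, had means of 27.8 CPM in control and 39.8 CPM in treated libraries. The third tested arm, miR-150-5p, did not pass (log2 fold change -0.02, edgeR adjusted p = 0.958). The endothelial list (both arms of miR-126a) fell from between 1790 and 2000 CPM to between 1163 and 1331 CPM, with 2 of 2 arms lower, beside 21.2% called lower over all. The erythroid miRNAs miR-144 and miR-451 were at or near 0, with at most 0.726 CPM in a library. The epithelial list ran from 12.1 to 17.4 and from 10.2 to 22.3 CPM, the neural list from 34.6 to 53.8 and from 41.4 to 73.9 CPM, and miR-122, the liver marker, from 5.11 to 11.4 and from 4.93 to 13.8 CPM (control and treated). In those 3 lists the groups overlapped and 0 of 4 tested arms passed. The part of these other markers in the muscle miRNA differences was not tested.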

How the data were processed

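The 8 miRNA sequencing samples of rat BMSCs were grouped by their titles. Per the labels' protocols, RNA was extracted with a Qiagen miRNA kit and libraries made with a VAHTS total RNA kit; the sources used here give neither strand handling nor small RNA selection. Per the submitters' processing notes, Bowtie 1.0 and the build mRatBN7.2 were used. The authors deposited whole-number counts per mature miRNA, CPM per library (checked: count over column total, to within 4.98e-05) and mean CPM per group. Per the file headers the deposited table also gives a log2 fold change and a p-value with its adjusted p-value, whose test is not given.

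The count tests used edgeR 4.0.16 under R 4.3.3 (quasi-likelihood test after filterByExpr and TMM scaling, group only, Benjamini-Hochberg over the 245 of 487 rows kept). The SE is the log2 fold change divided by the square root of F. Single values and log2 ratios used exact permutation tests (scipy 1.17.1). Alternatives used DESeq2 1.42.0 and limma 3.58.1 among others. The edgeR fit was tested on simulated data. miRNAs were named by a rule: all 8 members, up to 3 most abundant tested miRNAs of each muscle list and the 3 nearest patterns; miR-486 and list markers were added as the rows or counts they describe. Members and lists were chosen with earlier results of these data known. Same-numbered libraries were not treated as pairs.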

Additional observations from a re-analysis of the deposited data

Results flagged for a closer look

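Sets of 4 libraries were checked, 28 in all (member CPM, their sum and log2 ratios to miR-206-3p, per group). In 5 of them 1 library lay far from the other 3. The chance rate of about 1 in 20 holds for continuous values only. A set with counts in 1 library only is always flagged, and a set of 0 counts alone never is. In 4 of the 5 flagged sets the library was the only 1 with any count, each 1 or 2 counts. For miR-133b-3p it was at 0.852 CPM in a control and 0.704 CPM in a treated library. For miR-206-5p it was at 0.545 CPM in a control, and for miR-133a-5p at 0.657 CPM in a treated library. The other was the log2 ratio of miR-1b to miR-206-3p in treated replicate 2, at -2.62, above the other 3 treated libraries (-3.46 to -3.33). That library had the highest miR-1b level, 34.2 CPM, and without it the difference in log2 ratio between groups was 0.20 instead of 0.39.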

How the results depend on the processing

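miR-206-3p and miR-1b kept their direction and call in all 17 alternatives. The filter of 10 CPM in 4 samples admitted miR-1b through the treated libraries alone, so its call there adds no support. miR-499-5p missed the threshold without control replicate 2 and was not tested with the filter of 10 CPM in 4 samples; leaving out 1 library at a time gave log2 fold changes of 0.78 to 1.11. With no filter 5 muscle rows were higher instead of 3, since miR-1-3p and miR-133a-3p then entered. With upper quartile scaling 7 instead of 4 myogenesis-linked arms were lower and 6 instead of 9 higher. Leaving out 1 library gave CPM differences of 4.31 to 5.36 for miR-1-3p and 2.99 to 3.78 for miR-133a-3p, where 35 assignments allow no exact permutation p below 0.0571; thinning put miR-1-3p at 4.72. The log2 ratio of miR-1-3p to miR-206-3p ran from -0.12 to 0.63, and the CPM difference of miR-133b-3p from -0.213 to 0.176. The cause of these sign changes was not tested; the counts behind them are low.

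The labels name no pairing by replicate number, and none was seen in the counts. Deviations of same-numbered libraries correlated at -0.211 to 0.0762, and not every library correlated best with its own number. With 4 libraries per group this cannot show that same-numbered libraries were prepared apart. A replicate block gave 52 higher and 45 lower instead of 61 and 52, with the same 3 muscle calls. For miR-1-3p and miR-133a-3p the paired differences were 4.75 and 3.40 CPM, with p = 0.125, the smallest an exact sign-flip permutation over 4 pairs allows. Low counts limit miR-133b-3p, miR-133a-5p and miR-206-5p.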
